A study of Trichechus manatus latirostris with 11 samples.

Results

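The genes described are those of the Toll-like receptor, NOD and inflammasome pathways, as measured in the buffy coat, the layer of white cells and platelets in spun blood, of Florida manatees. They were taken from a list of 45 gene symbols, chosen by pathway. A row of the deposited table belonged to a listed gene when its transcript record, read without the version number, carried that symbol in the RefSeq gene table of the TriManLat1.0 assembly. In this way 23 of the 45 genes had a row, 1 row each, out of 15298 rows in all. The other 22 genes had no row with their symbol. They were TLR2, TLR6, TLR9, CD14, LY96, TIRAP, TICAM2, TOLLIP, IRAK1, IRAK2, TRAF3, TAB2, RIPK2, CARD6, NLRP1, NLRP3, NLRC5, NLRX1, AIM2, PYCARD, CASP1 and IL1RN. The symbols TLR9, CD14 and AIM2 were not in the gene table, and 5218 rows of the deposited table carried no symbol, so nothing is said here about the expression of these genes.

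Toll-like receptors recognise microbial products at the cell surface (lipoproteins, lipopolysaccharide, flagellin) or nucleic acids inside endosomes. Most of them signal through the adaptor MYD88 to the IRAK kinases and the ubiquitin ligase TRAF6, which activate the TAK1 kinase and then the IKK complex, the kinase that releases NF-kB. TLR3, and TLR4 from endosomes, use the adaptor TICAM1 (TRIF). The cytosolic receptors NOD1 and NOD2 sense fragments of bacterial cell walls, and the NLRC4 inflammasome responds to bacterial flagellin and secretion systems and leads to the maturation of IL-1beta and IL-18. Neutrophils and monocytes are the blood cells best known for these responses.

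RNA was sequenced from 4 adult manatees of the red tide group, rescued from a red tide area and brought to the Lowry Park Zoo (ZooTampa) for treatment, and from 7 adult control manatees. Of the controls, 2 came from the Indian River Lagoon, 4 from Crystal River, and 1 was recovering from pneumonia at the zoo. The study lists 1 control with high serum amyloid A, a marker of inflammation, and 1 with a lower RNA integrity than all other animals. Each group held 1 female. The libraries of these animals are not known here. Per the study's methods, 2 of the red tide animals gave blood on arrival and the other 2 after a week of care, and which library came from which is not known here. All 4 red tide animals and 1 control animal were zoo patients. The groups were also sampled in different periods. The methods describe RNAlater for every animal, and for the red tide samples also immediate freezing. Place, period, care and storage cannot be told apart from red tide exposure. The libraries had been depleted of ribosomal and globin RNA.

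The table held group means of normalized counts, that is, of read counts divided by a size factor for the depth of each library. One mean averaged 4 libraries and the other averaged 7, since the overall mean was their average weighted by 4 and 7 in every row. These are the sizes of the red tide and the control group, but the columns do not name the groups. The direction of change that the study describes for red tide is the opposite of the one these sizes would give. Which mean is the red tide one was therefore not settled, no direction below is a direction in red tide, and the means are called the 4-library and the 7-library mean. A log2 ratio below 0 means that the 4-library mean was the lower one. The means alone carry no error. For weak genes, however, whole reads of each of the 4 libraries could be recovered, because only 1 combination of whole reads gave the deposited mean. The size factors of the 4 libraries were 1.56, 1.03, 0.620 and 0.372, and values of single libraries are given in that order. The size factors of the 7 libraries lay between 0.702 and 1.73.

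Of the 23 genes, 15 were higher in the 7-library mean and 8 in the 4-library mean. A difference of at least 2-fold was seen in 12 genes. Of these, 9 were higher in the 7-library mean (39.1% of the 23) and 3 in the 4-library mean (13%). Over all rows of the table, 10.4% were at least 2-fold higher in the 7-library mean and 23.9% in the 4-library mean. Over the 10225 rows with an overall mean of at least 10, which takes in 22 of the 23 genes, these shares were 9.59% and 12.3%. The median log2 ratio of the 23 genes was -0.63, that of all rows was 0.14, and that of the rows with an overall mean of at least 10 was -0.01. No test of these shares was made, since members of a pathway are not independent.

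**Figure D1:**
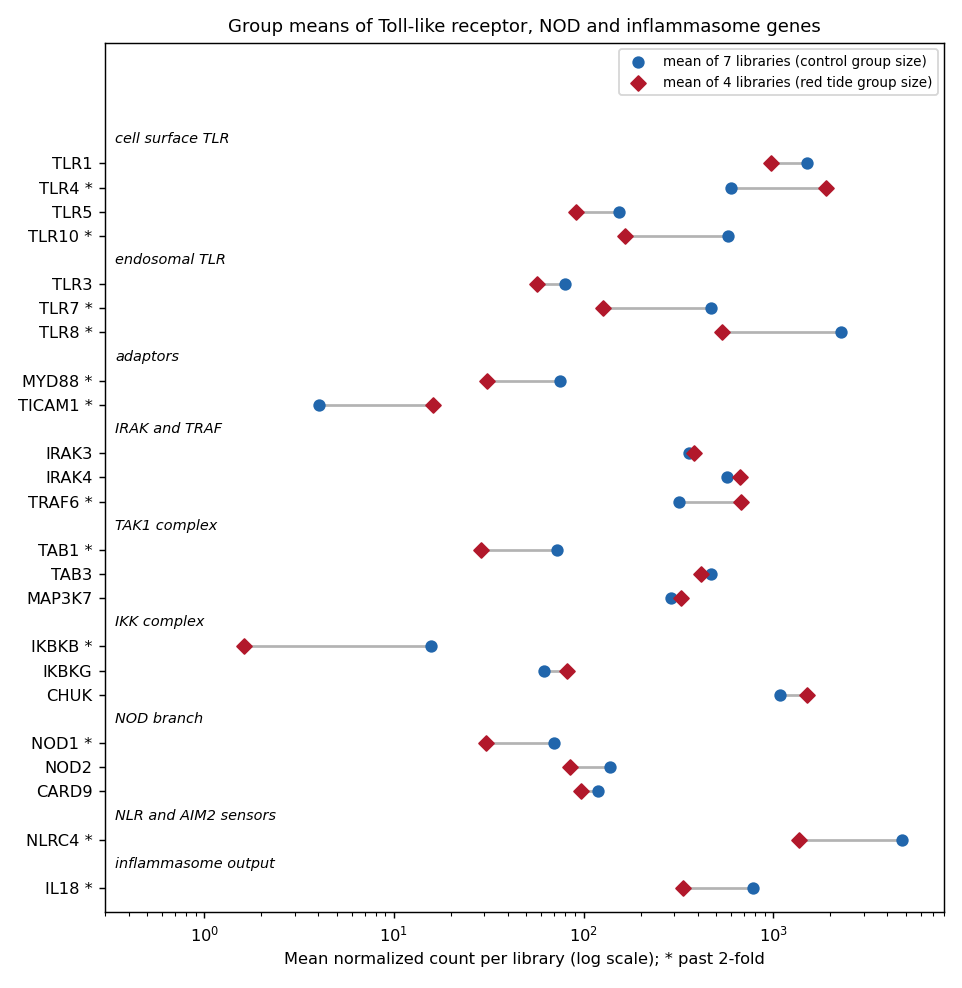
Mean normalized count per library (log scale) of the 23 genes with a row, by role in the pathway. Diamonds are 4-library means, circles are 7-library means, and an asterisk marks the 12 genes with a difference of at least 2-fold. The diamond lies to the left of the circle in 15 genes, and TLR4, TICAM1 and TRAF6 are the marked genes where it lies to the right.

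The sensors were mostly lower in the 4-library mean. Of the 10 receptors with a row (7 Toll-like receptors, NOD1, NOD2 and NLRC4), 9 were higher in the 7-library mean, 5 of them by at least 2-fold, and TLR4 was the exception. At least 2-fold higher in the 7-library mean were 10.4% of all rows and 9.59% of those with an overall mean of at least 10. The median log2 ratio of the latter was -0.01.

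Among the receptors of the cell surface, TLR4, the receptor for lipopolysaccharide, had a 4-library mean of 1906 and a 7-library mean of 597 normalized counts. This was a 3.19-fold difference (log2 ratio 1.67), and 5.27% of the rows with an overall mean of at least 10 had a log2 ratio as high or higher. TLR10, a relative of TLR1 whose ligands are less well defined, went the other way, with 165 over the 4 libraries and 578 over the 7 libraries (3.51-fold, log2 ratio -1.81). TLR1, which pairs with TLR2 to bind lipoproteins, had means of 973 and 1506, a 1.55-fold difference within the 2-fold limit. TLR1 and TLR10 are related in sequence to each other and to TLR6, and only uniquely mapped reads were counted, so the split of reads between them is uncertain. The 4-library means of TLR4, TLR10 and TLR1 were too high for reads of single libraries to be recovered, and the spread behind them is not known. The counting depth behind them was large, since the TLR4 mean corresponds to between 2833 and 11886 reads over the 4 libraries and that of TLR10 to between 244 and 1027.

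TLR5, the flagellin receptor, had 94.3, 87.6, 90.3 and 94.2 normalized counts in the 4 libraries, or 91.6 ± 3.24 (SD, n = 4). All 4 values lay below the 7-library mean of 154.5. The difference was 1.69-fold, and the log2 ratio of -0.75 was between -0.77 and -0.73 over the 4 ways of omitting a library.

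The endosomal receptors of single-stranded RNA, TLR7 and TLR8, were both lower in the 4-library mean. TLR8 had means of 536 and 2287 (4.27-fold, log2 ratio -2.09), and 1.1% of the rows with an overall mean of at least 10 had a log2 ratio as low or lower. TLR7 had means of 127 and 469 (3.70-fold, log2 ratio -1.89). The log2 ratios of TLR4 and TLR8 were 3.77 apart. TLR3, the endosomal receptor of double-stranded RNA, had 29.5, 86.6, 45.1 and 67.3 normalized counts in the 4 libraries, or 57.1 ± 25.04 (SD, n = 4), against a 7-library mean of 79.6. In 3 of the 4 libraries TLR3 was below that mean and in 1 it was above, so the 1.39-fold difference was smaller than the spread among the 4 libraries.

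The adaptors MYD88 and TICAM1 differed in opposite directions. MYD88 had 48.1, 37.0, 22.6 and 16.1 normalized counts in the 4 libraries, or 31.0 ± 14.4 (SD, n = 4), from 133 reads. Each of these values was below the 7-library mean of 75.1, a 2.43-fold difference (log2 ratio -1.28, or -1.57 to -1.06 on omitting any 1 of the 4).

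TICAM1 was the only gene of the 23 for which reads of all 11 libraries were recovered. Reads of the 7 libraries could be recovered only up to a mean of 6, so a gene much higher in the 7 libraries could not have been tested, and the direction found for TICAM1 is in part set by that limit. It had 5.13, 14.6, 9.67 and 34.97 normalized counts in the 4 libraries, from 42 reads in all. In the 7 libraries, by falling size factor, it had 0, 4.58, 0, 6.83, 1.81, 10.9 and 4.27, from 32 reads in all. The groups overlapped, with 2 of the 4 libraries above the highest of the 7 libraries and 5 of the 7 below the lowest of the 4. The means were 16.1 ± 13.2 (SD, n = 4) and 4.05 ± 3.92 (SD, n = 7), a difference of 12.05 normalized counts (3.97-fold, two-sided exact permutation test, p = 0.0424, where 0.00606 is the smallest p that 4 against 7 libraries allow). The p-value did not hold on omitting single libraries, where fewer arrangements also make the smallest possible p larger. On omitting 1 library it was 0.117 without the library of size factor 0.372, 0.117 without that of 1.03 and 0.05 without that of 0.620. In all it was not under 0.05 in 8 of 11 such cases, 5 of them omitting 1 of the 7 libraries, and it ranged from 0.019 to 0.117. The log2 ratio of TICAM1, 1.99, was 1.28 on omitting the library with a size factor of 0.372. The difference of the means was 5.75 normalized counts without that library and 15.7 without that of 1.56, the lowest and highest of the 11 cases. Intervals and p-values of this kind cover these libraries, and reads counted after amplification are not independent molecules.

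**Figure D2:**
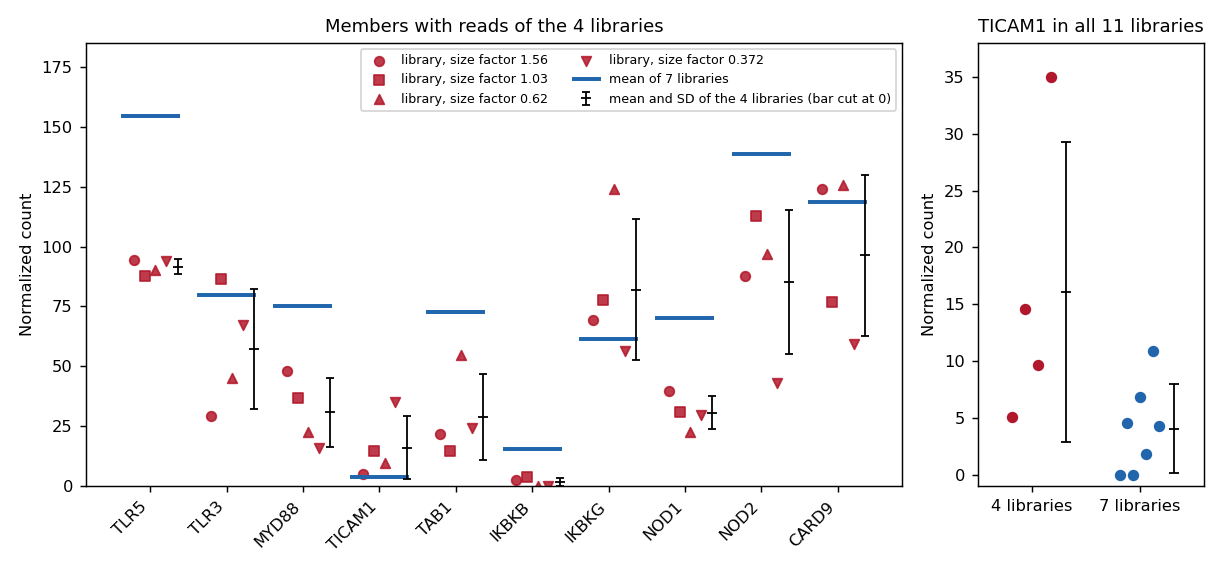
Left, normalized counts of each of the 4 libraries (symbols by size factor) for the 10 genes with recovered reads, with the mean and SD of the 4 libraries (black) and the deposited 7-library mean (blue line). Right, TICAM1 in all 11 libraries with mean and SD of each group. The 4 libraries lie entirely below the blue line for TLR5, MYD88, TAB1, IKBKB, NOD1 and NOD2, entirely above it for TICAM1, and on both sides of it for TLR3, IKBKG and CARD9.

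Downstream of the adaptors, TRAF6, the ubiquitin ligase on which these receptors converge, had means of 673 over the 4 libraries and 317 over the 7 libraries (2.12-fold, log2 ratio 1.08). The kinase IRAK4 (668 and 574) and IRAK3, an inhibitory member of the IRAK family (384.5 and 358), were within 1.16-fold and 1.07-fold. All 3 measured genes of the IRAK and TRAF group were thus higher in the 4-library mean, but only TRAF6 by at least 2-fold. IRAK4 and IRAK3 lay nearer the middle of the rows with an overall mean of at least 10. Of those rows, 37.7% had a log2 ratio as high as that of IRAK4 or higher, and 43.5% for IRAK3, against 11.1% for TRAF6.

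In the TAK1 complex, the kinase MAP3K7 (TAK1) itself and the adaptor TAB3 were within 1.14-fold, with means of 328 and 288 for MAP3K7 and of 414 and 471 for TAB3. TAB1, an activating partner of the kinase, had 21.8, 14.6, 54.8 and 24.2 normalized counts in the 4 libraries, or 28.9 ± 17.8 (SD, n = 4), from 92 reads. All 4 were below the 7-library mean of 72.7, by 2.52-fold (log2 ratio -1.33). Without the library of size factor 0.620, which held the highest value, the log2 ratio was -1.85.

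The IKK complex showed its largest ratio in its weakest row. IKBKB, the catalytic subunit of the canonical pathway, had 2.57, 3.89, 0 and 0 normalized counts in the 4 libraries, a mean of 1.61 ± 1.94 (SD, n = 4) from 8 reads, against 15.6 over the 7 libraries (9.69-fold, log2 ratio -3.28). The 95% exact Poisson interval of the 8 reads corresponds to a ratio between 4.92 and 22.4 and covers the counting error of the 4 libraries alone. A count of 0 allows up to 3 reads, or 4.84 and 8.07 normalized counts in the 2 libraries without a read, both below the 7-library mean. The log2 ratio was -4.19 without the library of size factor 1.03 and -2.67 with 1 added to both means. The regulatory subunit IKBKG (NEMO) had 69.3, 77.9, 124 and 56.5 normalized counts, or 81.9 ± 29.4 (SD, n = 4), with 3 libraries above and 1 below the 7-library mean of 61.5. The other catalytic subunit, CHUK, had means of 1506 and 1081 (1.39-fold). Both were within 2-fold.

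Of the cytosolic receptors, NOD1 had 39.8, 31.2, 22.6 and 29.6 normalized counts in the 4 libraries, or 30.8 ± 7.07 (SD, n = 4), from 119 reads. These were all below the 7-library mean of 70.2, a 2.28-fold difference (log2 ratio -1.19, or -1.34 to -1.07 on omitting any 1 of the 4). NOD2 had 87.9, 113, 96.7 and 43.0 normalized counts, or 85.1 ± 29.9 (SD, n = 4), also all below its 7-library mean of 138.6, by 1.63-fold. CARD9, an adaptor of fungal C-type lectin receptors that also works with NOD2, had 124, 76.9, 126 and 59.2 normalized counts, with 2 libraries on each side of the 7-library mean of 118.5, so the 1.23-fold difference was within the spread of the 4 libraries.

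NLRC4 was the member with the highest 7-library mean, 4767 normalized counts, against 1363 over the 4 libraries (3.50-fold, log2 ratio -1.81, and 1.93% of the rows with an overall mean of at least 10 were as low or lower). IL18, the cytokine that the inflammasome releases, had means of 333 and 779 (2.34-fold, log2 ratio -1.23). Both means were too high for single libraries. In bulk samples, fewer cells of a type and less RNA per cell cannot be told apart, here and in the results above.

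**Figure D3:**
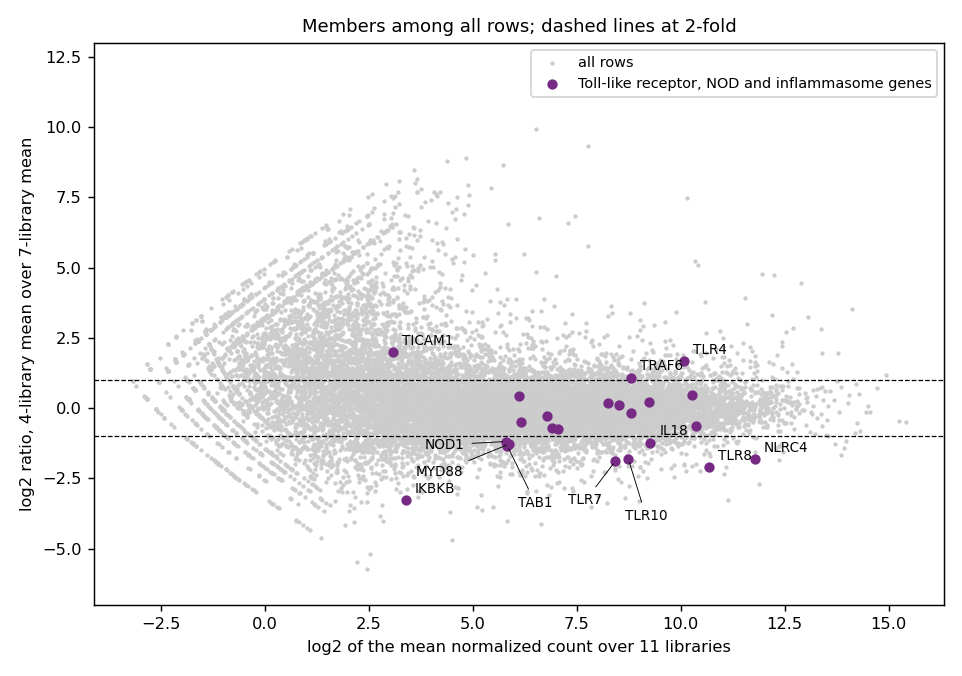
Ratio of the 4-library to the 7-library mean on the log2 scale, against the log2 of the overall mean normalized count, for all 15298 rows (grey) and the 23 genes (purple), with the genes past 2-fold named. Of the named genes, 9 lie below the lower dashed line and 3 above the upper one, and TICAM1 and IKBKB lie at low means, where the grey points also spread most widely.

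The single libraries of the weaker genes were compared as a group with the 7-library mean. Among the 6 genes with a 4-library mean of up to 80, all 4 libraries lay below the 7-library mean in 4 genes (MYD88, TAB1, IKBKB and NOD1) and above it in 1 (TICAM1). In all rows of the table with such a mean and recovered reads, this was so in 17.3% and 10.1%. The limit leaves out genes with high 4-library means, such as TLR4 and TRAF6, so these counts describe the 6 genes and not the whole list. With the limit raised to a mean of 100, which added TLR5, NOD2, IKBKG and CARD9, the counts were 6 and 1 of 10 genes, against 17.8% and 10.6% of all rows. Both pairs of shares also took in rows with an overall mean under 10, whereas 9 of the 10 genes had at least 10. The shares were thus not matched for level. The median log2 ratio of the 10 genes, -0.73, was between -0.81 and -0.67 on omitting any 1 of the 4 libraries. A low 4-library mean admitted these 10 genes, which favours ratios below 0, so the range describes them alone. The spread of the 7 libraries is not known for any of these genes but TICAM1. For 7 of the 12 genes past 2-fold, namely TLR4, TLR7, TLR8, TLR10, TRAF6, NLRC4 and IL18, the spread of neither group is known, so the ratios of these 7 genes have no replicate check.

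A wider list of 87 genes around the pathway gave 55 rows of 54 genes. Here 18 rows (32.7%) were at least 2-fold higher in the 4-library mean and 8 (14.5%) in the 7-library mean, and the median log2 ratio was 0.34. Over all rows of the table the shares were 23.9% and 10.4%, and no test was made of the difference. Over the rows with an overall mean of at least 10 they were 12.3% and 9.59%. The wider list was not limited to such rows. Of the 18 rows at least 2-fold higher in the 4-library mean, 6 belonged to the kinases and factors, a subgroup that also has 18 rows. These 6 were the IkB family genes NFKBIA, NFKBIE and NFKBIZ, the kinase MAP3K8 and the transcription factors ATF3 and IRF1. A further 4 (of 5 rows) were output genes of NF-kB signalling and 2 (of 5 rows) were regulators of the receptor complexes. The 10 rows of inflammasome partners were divided, with 4 past 2-fold higher in the 7-library mean (NAIP, NLRP12 and 2 rows of CASP8 with at most 5.16 normalized counts over the 4 libraries) and 3 in the 4-library mean (NLRC3, PANX1 and GSDME). GSDME was also weak, with means of 2.95 and 1.13 normalized counts and the 4 libraries on both sides of the 7-library mean. NFKBIA, NFKBIE, NFKBIZ, MAP3K8, ATF3, IRF1, CASP8, NLRC3, PANX1 and GSDME were named after their values were seen. The 5 with the largest ratio, both means being at least 10, were IL1A (3116 and 17.4 normalized counts, log2 ratio 7.48), the cytokine IL1B (19298 and 880, log2 ratio 4.45), TNFAIP3, the deubiquitinase A20 that ends TRAF6 signalling (7412 and 486, log2 ratio 3.93), the neutrophil chemokine CXCL8 (42281 and 3670, log2 ratio 3.53) and PTGS2, cyclooxygenase-2 (1041 and 101, log2 ratio 3.37).

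In the other direction the 5 included partners of NLRC4 and IL18. NAIP, which recognises flagellin and secretion system proteins for NLRC4, had 23.1, 47.7, 32.2 and 16.1 normalized counts in the 4 libraries, all below the 7-library mean of 189 (6.34-fold, log2 ratio -2.66). Both chains of the IL-18 receptor were lower in the 4-library mean along with IL18, namely IL18R1 (227 and 615, log2 ratio -1.44) and IL18RAP (447 and 1062, log2 ratio -1.25). The stress kinase MAPK14 (p38alpha) had means of 282 and 758 (log2 ratio -1.43), and NLRP12, an inhibitory NOD-like receptor of myeloid cells, 131 and 263 (log2 ratio -1.01). None of the 6 measured partners of the NOD branch was past 2-fold in either direction. Of the 22 rows of the wider list with recovered reads, all 4 libraries were below the 7-library mean in 5 and above it in 3, and 14 had libraries on both sides. Over all rows with recovered reads and a 4-library mean of up to 100, the shares below and above were 17.8% and 10.6%, not far from those of the 22 rows. That limit leaves out rows with high 4-library means, such as IL1A, IL1B, CXCL8 and MAPK14. The counts therefore describe the 22 rows and not the whole wider list, and the shares were not matched for level.

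**Figure D4:**
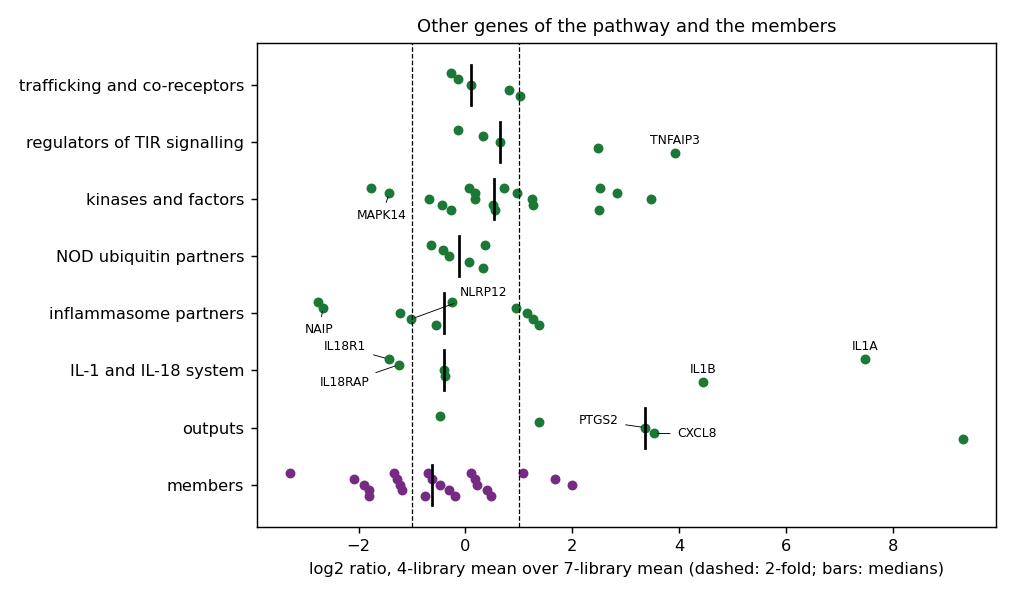
Ratio of the 4-library to the 7-library mean on the log2 scale for the 55 rows of the wider pathway list (green, by subgroup) and the 23 genes (purple), with medians as black bars and 2-fold as dashed lines. The output genes have a median of 3.37 and the 23 genes a median of -0.63. Named points are the 5 rows in each direction with the largest ratio among those with both means of at least 10.

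Markers of some blood cell types also differed between the 4-library and the 7-library mean. Of 11 neutrophil markers 7 had a row, none of them listed at 0, and all 7 were at least 2-fold higher in the 7-library mean. Their median log2 ratio was -2.70, with summed means of 2153 over the 4 and 12503 over the 7 libraries. In the 4 libraries the 3 neutrophil markers with recovered reads (CXCR1, CXCR2 and MMP9) summed to 49.4, 159, 406 and 129 normalized counts, against a summed 7-library mean of 1744. All 4 platelet markers with a row, of 6, were at least 2-fold higher in the 4-library mean (summed means 10483 and 3369). The monocyte markers did not move together, with 2 of 7 rows past 2-fold in one direction and 1 in the other, and summed means of 2598 and 3155. The 7 rows were of 6 genes, and the 2 rows of VCAN differed. One had means of 61.6 and 25.3, past 2-fold, and the other of 205 and 228. For T cells, B cells, NK cells and erythroid cells only 2, 3, 2 and 2 markers had a row, with summed means of 364 and 482, 770 and 771, 7.94 and 9.60, and 182 and 486. Of the general leukocyte genes, CD53 had means of 2180 and 2108 and CORO1A of 28.4 and 45.1. The part of neutrophil and platelet content in the values of the receptors, NLRC4, IL18 and the other genes was not tested.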

How the data were processed

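RNA from buffy coats was sequenced as paired reads, 1 library for each of 11 manatees (4 red tide, 7 control). Per the study's methods and the labels, the authors trimmed with Cutadapt, mapped to TriManLat1.0 with Bowtie2, removed duplicates with SAMtools and scripts of their own, counted uniquely mapped reads per gene sequence and normalized with DESeq in the DEB tool; the counting program and the annotation release were not given in the sources used here. Each deposited signal value is a mean of size-factor-normalized read counts, for the 11 libraries together and per group. The table also holds the authors' own fold changes and p-values, which were not used. Columns of single samples left unused numbered 0, so no test across genes could be fitted.

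Rows were matched to RefSeq symbols by transcript record (10080 of 15298 rows, 1658 of them with the version number, and 1 of the 23 genes described). The gene table names no scaffold, so no coordinates are given. Size factors were read from the lowest means and refined by least squares. Reads were kept where 1 combination alone lay within the rounding of the mean, namely in 9631 of the 9634 rows whose 4-library mean did not exceed 80 and in 4413 of the 4505 rows whose 7-library mean did not exceed 6. A limit of 100 (10136 of 10159 rows) was chosen after seeing the data. The procedure was tested on simulated data. Depth is known only as size factors, whose largest was 4.66 times the smallest.

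The gene list, the wider lists and the tests were chosen with earlier results of these data known. Receptors and genes past 2-fold were named with their values, and of the wider list the 5 rows with the largest ratio in each direction with both means of at least 10. Alternatives concerned the fold limit, centring, a pseudocount of 1, low means and leaving out libraries. Python 3.11.15, numpy 2.4.6, pandas 2.3.3, scipy 1.17.1 and matplotlib 3.10.9 were used.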

Additional observations from a re-analysis of the deposited data

How the results depend on the processing

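The count of genes at least 2-fold higher in the 7-library mean (9) came to 5 with a fold limit of 3 and to 12 with a limit of 1.5. It was 9 with ratios centred on the median of rows with an overall mean of at least 10, with a pseudocount of 1 and with rows of an overall mean of at least 10. The count of genes at least 2-fold higher in the 4-library mean (3) was 2 or 3 in each case. The count of genes with all 4 libraries above the 7-library mean (1, TICAM1) was 0 with a 7-library mean of at least 10, because that limit leaves TICAM1 out. The exact permutation p of TICAM1 (0.0424) was 0.0364 on the scale of log2(normalized count + 1), and ranged from 0.019 to 0.117 on omitting any 1 of the 11 libraries. With fewer libraries the smallest p also becomes larger. Of 86 values of single genes under an alternative, 0 changed direction and 3 moved by over 1.5-fold, namely IKBKB with a pseudocount and without the library of size factor 1.03, and TICAM1 without that of 0.372. No paired analysis was possible because the table has no columns of single samples and the libraries cannot be linked to replicate numbers. Group means alone limit what can be said of the stronger genes, for which no spread was available.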
